A study of Mus musculus with 36 samples.

Results

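The genes described here are 33 genes of DNA replication and mitosis, the machinery that copies the genome in S phase and divides it in M phase. They were taken as a fixed list of gene symbols and were not picked by a threshold on any measured value. All 33 were found among the 27179 genes of the count files from intestine and among the 78275 Ensembl genes of the CD8 tables. By role, 8 license replication origins, 7 work at the replication fork or make its nucleotides, 2 are the E-type cyclins of S phase entry, 7 are mitotic cyclins and kinases, and 9 serve the spindle, its checkpoint or chromosome structure.

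The study compared mice that carry (WT) or lack (KO) the long noncoding RNA lnc13, in a study of oral tolerance to gluten. DQ8 is a human HLA class II molecule linked to coeliac disease. Small intestine from gluten-challenged lnc13-WT-DQ8 and lnc13-KO-DQ8 mice gave 2 WT and 2 KO libraries each of whole tissue, of lamina propria lymphocytes (LPL) and of intraepithelial lymphocytes (IEL). All of these 12 libraries, controls included, came from DQ8 animals after gluten challenge. From lnc13 WT and KO mice, labelled without DQ8, CD8 IELs gave 3 WT and 3 KO libraries labelled unstimulated and 3 WT and 3 KO libraries from cells cultured with the cytokine IL-15 for 48 h. Of 36 samples 24 were used, and the 6 CD8ab IEL libraries and 6 RNA antisense purification libraries were not analysed here. The labels call the replicates biological and give no ages or pooling, and no RNA of lnc13 itself was read here, so the genotype labels were not checked by it.

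Gene reads per library numbered 10186522 to 13620975 in the 12 intestinal libraries, 16428511 to 23762128 in unstimulated CD8 cells and 14724754 to 26997371 in the IL-15 set. Levels are given as CPM (reads of a gene per 1000000 gene reads), scaled by TMM in the 12 libraries, and are compared for a gene between libraries, not between genes of different length. Marker genes did not all follow the labels. The 6 T cell genes (Cd3e, Cd3d, Cd3g, Cd2, Lck and Cd247) summed to 117 to 414 CPM in IEL, 18.7 to 42.8 in tissue and only 1.91 to 66.2 in LPL. The 5 exocrine pancreas genes summed to 3210 to 7190 CPM in LPL against at most 8.7 in tissue and IEL, and the 7 epithelial genes to 7690 to 10400 in LPL, 8850 to 10200 in IEL and 19800 to 28500 in tissue. The libraries labelled LPL and IEL therefore held epithelial RNA, and below they are named by their labels. CD8 libraries carried T cell genes at 6700 to 8430 CPM.

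In the intestine, dividing cells sit mainly in the crypts, where stem cells and their transit-amplifying daughters renew the epithelium. Resting intraepithelial CD8 T cells divide little, and IL-15 is a cytokine known to make such cells survive and proliferate. Before S phase, Cdc6 and Cdt1 load the ring of Mcm2 to Mcm7 onto replication origins, and most of these genes are switched on by E2F factors. Later, the mitotic cyclins, Cdk1 and the spindle genes are switched on in G2 through promoter elements called CHR (cell cycle genes homology region) and CCAAT, the latter bound by NF-Y.

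Promoters from RefSeq (GRCm38.p6, 250 bases before to 50 after a start site) were matched for 26 of the 33 genes, and Mcm7 had more than 1 window. Each was searched on both strands for 4 words of the E2F site. These were the word TTGGCGC and its variants, namely TTCCCGC as well as TTCGCGC, together with TTGCCGC. The CHR word was TTTGAA, and the NF-Y word was CCAAT. An E2F word was present in 12 of the 26 genes (46.2%), against 9.57% of 32851 promoters in the table. CHR was found in 10 (38.5%, against 17.9%) and CCAAT in 21 (80.8%, against 37.4%). E2F and CHR words fell apart by role, and CCAAT did not. E2F words were in 6 of 7 licensing genes, 3 of 5 fork genes, 2 of 5 mitotic cyclins and kinases and 1 of 8 spindle genes. CHR was in 1 of 7 licensing genes, 0 of 5 fork genes, 4 of 5 mitotic cyclins and kinases and 5 of 8 spindle genes. CCAAT was in 5 of 7 licensing genes, 4 of 5 fork genes, 5 of 5 mitotic cyclins and kinases and 7 of 8 spindle genes. The 1 E-type cyclin promoter matched held none of these words. A match is a string of letters and was not tested as a binding site.

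The 150 bases before the start site are shown for 6 of these genes. They let the E2F words of S phase genes be read against the CHR words of mitotic genes, with CCAAT in both. Capitals mark every E2F, CHR or CCAAT word on either strand, and words that overlap run together, as E2F and CCAAT do in Ccnb1. Mcm6 lies at chr1:128359706-128359855, minus strand, Rrm1 at chr7:102441545-102441694, plus strand and Ccnb1 at chr13:100786487-100786636, minus strand. Cdk1 lies at chr10:69352913-69353062, minus strand, Cdc20 at chr4:118437344-118437493, minus strand and Kif11 at chr19:37376232-37376381, plus strand.
Mcm6: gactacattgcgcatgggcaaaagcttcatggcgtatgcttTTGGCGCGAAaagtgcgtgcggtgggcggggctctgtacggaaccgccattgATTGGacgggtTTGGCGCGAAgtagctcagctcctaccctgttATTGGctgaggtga
Rrm1: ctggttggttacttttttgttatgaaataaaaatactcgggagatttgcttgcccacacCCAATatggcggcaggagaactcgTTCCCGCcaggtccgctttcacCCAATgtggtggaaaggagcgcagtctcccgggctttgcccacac
Ccnb1: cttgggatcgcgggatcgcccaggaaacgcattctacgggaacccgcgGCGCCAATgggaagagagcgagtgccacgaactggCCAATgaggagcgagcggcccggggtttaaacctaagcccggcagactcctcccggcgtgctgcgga
Cdk1: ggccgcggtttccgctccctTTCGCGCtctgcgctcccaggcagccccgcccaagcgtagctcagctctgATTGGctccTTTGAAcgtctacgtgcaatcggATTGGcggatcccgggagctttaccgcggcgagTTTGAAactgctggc
Cdc20: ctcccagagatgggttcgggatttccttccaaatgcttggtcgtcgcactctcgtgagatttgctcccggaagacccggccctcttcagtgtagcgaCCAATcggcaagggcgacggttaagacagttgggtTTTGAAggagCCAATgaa
Kif11: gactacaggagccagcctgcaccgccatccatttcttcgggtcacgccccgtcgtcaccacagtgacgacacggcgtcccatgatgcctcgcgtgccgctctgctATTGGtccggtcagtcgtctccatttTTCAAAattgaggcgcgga

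Mcm6 carries E2F words on both strands with CCAAT nearby and no CHR word, and Rrm1, the large subunit of ribonucleotide reductase, likewise has E2F and CCAAT words only. Cdk1 holds an E2F word further upstream, CCAAT words and CHR words, the last of them close to the start. Ccnb1 has an E2F word that overlaps CCAAT, a further CCAAT and no CHR word. In Cdc20 and Kif11 the marked words are CHR and CCAAT, with no E2F word in the window.

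Both cell preparations held more of these transcripts than whole tissue did, and in LPL the rise took in S phase and M phase genes alike. In LPL 29 of the 33 genes were higher than in tissue (edgeR quasi-likelihood test, adjusted p under 0.05) and 0 were lower, with a median log2 difference of 1.27. Of all 14716 genes tested 27.3% were higher and their median was 0.03. In IEL 17 were higher and 0 lower (median 0.78), where 21.9% of all genes were higher and 45% were called in either direction. The 2 comparisons share the tissue libraries, so they are not independent. Whole tissue RNA had been extracted with TRIzol and cell RNA with a column kit, per the labels, and extraction cannot be told apart from preparation.

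**Figure D1:**
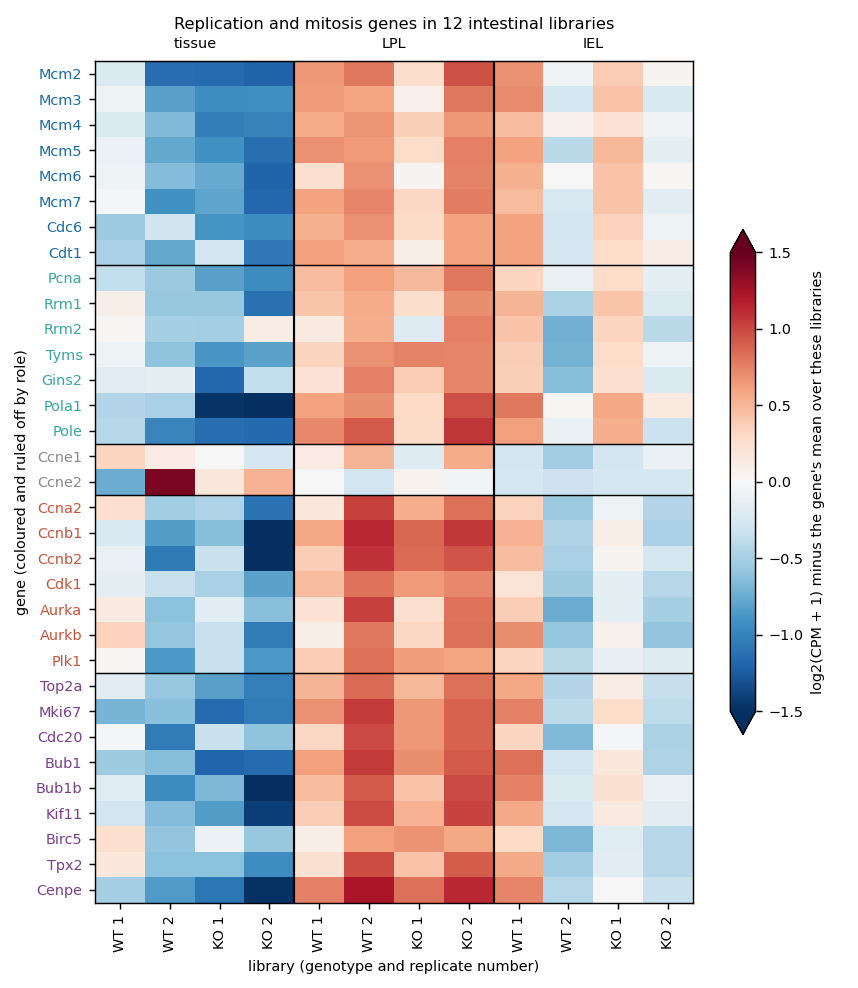
Level of each of the 33 genes in the 12 intestinal libraries, as log2(CPM + 1) minus the gene's mean over the 12 (colour), with genes in rows by role and libraries in columns by preparation, genotype and replicate number. All LPL libraries lie above all tissue libraries for 27 genes (26.6% of all genes) and all IEL libraries above all tissue libraries for 12 (23%). All LPL libraries lie above all IEL libraries for 5 (15.2%).

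Origin licensing genes rose in both preparations, 8 of 8 in LPL and 8 of 8 in IEL. Mcm2, a subunit of the replicative helicase, measured 27.4 and 13.9 CPM in WT tissue and 13.8 and 13.4 in KO tissue. It measured 50.7 and 56.3 in WT LPL and 38.6 and 62.8 in KO LPL, and 52.2 and 30.7 in WT IEL and 42.1 and 32.9 in KO IEL. Every library of either preparation was above every tissue library for Mcm2. The log2 difference from tissue was 1.64 (SE 0.27, edgeR adjusted p = 0.000994) in LPL and 1.23 (SE 0.26, edgeR adjusted p = 0.00585) in IEL. Mcm4, another subunit of that ring, measured 26.1 and 18.9 CPM in WT tissue and 14.3 and 14.7 in KO tissue. It reached 45.2 and 48.8 in WT LPL and 39.4 and 48.4 in KO LPL, and 42.4 and 31.9 in WT IEL and 35.6 and 29.3 in KO IEL. Again no tissue library reached the lowest LPL or IEL library, and the log2 differences were 1.33 (SE 0.16, edgeR adjusted p = 0.000187) and 0.94 (SE 0.16, edgeR adjusted p = 0.00189). Over the 8 licensing genes the log2 difference ran from 1.12 to 1.64 in LPL, with Mcm6 lowest, and from 0.87 to 1.23 in IEL, with Mcm7 lowest.

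At the replication fork 6 of 7 genes rose in LPL and 3 of 7 in IEL. Pola1, the catalytic subunit of DNA polymerase alpha that makes the primers, measured 10.4 and 9.98 CPM in WT tissue and 4.57 and 3.71 in KO tissue. It measured 22.5 and 24.1 in WT LPL and 18 and 29.1 in KO LPL, and 25.7 and 14.6 in WT IEL and 22 and 16 in KO IEL. Pola1 had the largest IEL difference of the 33 genes, 1.59 (SE 0.24, edgeR adjusted p = 0.00122), beside 1.85 (SE 0.24, edgeR adjusted p = 0.000296) in LPL. Pcna, the sliding clamp, measured 100 and 88.2 CPM in WT tissue and 73.4 and 66.5 in KO tissue, 181 and 199 in WT LPL and 182 and 225 in KO LPL, and 162 and 120 in WT IEL and 158 and 117 in KO IEL. The groups did not overlap, and the log2 difference was 1.28 (SE 0.16, edgeR adjusted p = 0.00022) in LPL and 0.78 (SE 0.15, edgeR adjusted p = 0.00418) in IEL. Pole, the leading-strand polymerase, measured 9.23 and 5.94 CPM in WT tissue and 5.22 and 5.15 in KO tissue, 21.7 and 25 in WT LPL and 15.8 and 27.9 in KO LPL, and 20.1 and 11.8 in WT IEL and 19 and 10 in KO IEL. Its log2 differences were 1.85 (SE 0.30, edgeR adjusted p = 0.000964) and 1.28 (SE 0.30, edgeR adjusted p = 0.00839). Rrm2, the regulated subunit of ribonucleotide reductase, did not pass in either: 20.3 and 13.9 CPM in WT tissue and 13.7 and 21.7 in KO tissue, 22.1 and 29.5 in WT LPL and 17.4 and 34.5 in KO LPL, and 27.3 and 11.7 in WT IEL and 25.3 and 14.8 in KO IEL. Those Rrm2 libraries overlapped between all 3 preparations. Its log2 difference was 0.58 (SE 0.34, edgeR adjusted p = 0.18) in LPL and 0.19 (SE 0.34, edgeR adjusted p = 0.679) in IEL. Rrm1, Tyms and Gins2 passed in LPL and not in IEL, with log2 differences of 1.02 to 1.27 and of 0.51 to 0.64.

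The E-type cyclins, which drive the G1 to S step with Cdk2, were not called in either preparation. Ccne1 measured 8.89 and 7.59 CPM in WT tissue and 6.85 and 5.63 in KO tissue, 7.58 and 10.2 in WT LPL and 5.89 and 10.6 in KO LPL, and 5.44 and 4.5 in WT IEL and 5.51 and 6.36 in KO IEL. Its log2 difference was 0.26 (SE 0.24, edgeR adjusted p = 0.38) in LPL and -0.40 (SE 0.24, edgeR adjusted p = 0.202) in IEL. Ccne2 measured 2.42 and 14.2 CPM in WT tissue and 5.44 and 7.18 in KO tissue, 4.73 and 3.7 in WT LPL and 4.94 and 4.57 in KO LPL, and 3.75 and 3.6 in WT IEL and 3.78 and 3.78 in KO IEL. The 4 tissue libraries of Ccne2 spanned 2.42 to 14.2 CPM while all 8 others lay between 3.6 and 4.94. Its log2 difference, the lowest of the 33 genes in both comparisons, was -0.69 (SE 0.45, edgeR adjusted p = 0.214) in LPL and -0.96 (SE 0.45, edgeR adjusted p = 0.115) in IEL. The value rested on single tissue libraries: without tissue WT replicate 1 Ccne2 was called lower in both, at -1.07 and -1.34, and without tissue WT replicate 2 it was 0.22 and -0.07.

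Of the mitotic cyclins and kinases 6 of 7 rose in LPL against tissue, and 0 of 7 passed in IEL. Cdk1, the kinase that starts mitosis, measured 25.4 and 22 CPM in WT tissue and 19.7 and 15.6 in KO tissue, 39.2 and 50 in WT LPL and 44.2 and 47 in KO LPL, and 32.5 and 19.1 in WT IEL and 25.4 and 20.6 in KO IEL. All LPL libraries were above all tissue and all IEL libraries, and IEL overlapped tissue. The log2 difference from tissue was 1.14 (SE 0.19, edgeR adjusted p = 0.0011) in LPL and 0.25 (SE 0.19, edgeR adjusted p = 0.3) in IEL. Ccnb1, the B-type cyclin that activates Cdk1, measured 26.5 and 16.9 CPM in WT tissue and 19.7 and 9.58 in KO tissue, 46.8 and 69.5 in WT LPL and 57.3 and 65.7 in KO LPL, and 44.9 and 22.4 in WT IEL and 33.3 and 22 in KO IEL. Its log2 difference was 1.75 (SE 0.31, edgeR adjusted p = 0.00168) in LPL and 0.78 (SE 0.31, edgeR adjusted p = 0.0682) in IEL. Reads of Ccnb1, Pcna and Tyms may be shared with annotated pseudogene copies, so their levels are less certain. In this group Aurkb, the kinase of the chromosomal passenger complex, did not pass in LPL at 0.93 (SE 0.37, edgeR adjusted p = 0.0589).

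Spindle, checkpoint and chromosome genes rose 9 of 9 in LPL and 6 of 9 in IEL. Cenpe, a kinetochore motor, measured 19.7 and 15.3 CPM in WT tissue and 12.8 and 9.46 in KO tissue, 48.4 and 67.3 in WT LPL and 50.7 and 62.9 in KO LPL, and 47.7 and 20.8 in WT IEL and 28.5 and 22.2 in KO IEL. It had the largest LPL difference of the 33 genes, 2.04 (SE 0.27, edgeR adjusted p = 0.000339), and 1.08 (SE 0.27, edgeR adjusted p = 0.0109) in IEL. The lowest LPL library of Cenpe stood above the highest IEL library, and the lowest IEL library above the highest tissue library. Mki67, the proliferation marker that coats mitotic chromosomes, measured 96.4 and 101 CPM in WT tissue and 70.2 and 75.6 in KO tissue, 254 and 325 in WT LPL and 248 and 290 in KO LPL, and 266 and 118.6 in WT IEL and 191 and 120 in KO IEL. Its log2 difference was 1.72 (SE 0.26, edgeR adjusted p = 0.000668) and 1.03 (SE 0.26, edgeR adjusted p = 0.0111). Bub1, a checkpoint kinase, measured 8.8 and 8.17 CPM in WT tissue and 5.22 and 5.39 in KO tissue, 20.8 and 28.5 in WT LPL and 22 and 26 in KO LPL, and 24.3 and 10.7 in WT IEL and 14.9 and 9.31 in KO IEL. No library of either preparation fell to the tissue range for Mki67 or Bub1. Bub1 differed by 1.86 (SE 0.28, edgeR adjusted p = 0.000629) and 1.12 (SE 0.28, edgeR adjusted p = 0.0106).

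Kif11, the motor that pushes spindle poles apart, measured 33.2 and 25.3 CPM in WT tissue and 22 and 14.5 in KO tissue, 52.2 and 80.5 in WT LPL and 58.2 and 82.1 in KO LPL, and 60 and 33.6 in WT IEL and 44.4 and 35.9 in KO IEL. It was higher by 1.56 (SE 0.25, edgeR adjusted p = 0.000939) in LPL and 0.91 (SE 0.25, edgeR adjusted p = 0.0167) in IEL. Top2a, which untangles sister chromosomes, measured 114 and 86.5 CPM in WT tissue and 72.7 and 62.6 in KO tissue, 183 and 233 in WT LPL and 182 and 228 in KO LPL, and 193 and 94.6 in WT IEL and 138.98 and 101 in KO IEL. Its tissue and IEL libraries overlapped, its LPL libraries stood above all tissue libraries, and its log2 differences were 1.32 (SE 0.24, edgeR adjusted p = 0.00172) and 0.67 (SE 0.24, edgeR adjusted p = 0.0442). The 3 not called in IEL were Cdc20, Birc5 and Tpx2, with log2 differences of 0.01 to 0.41. Across all roles 27 of the 33 genes had every LPL library above every tissue library (26.6% of all genes), and 12 had every IEL library above every tissue library (23% of all genes).

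**Figure D2:**
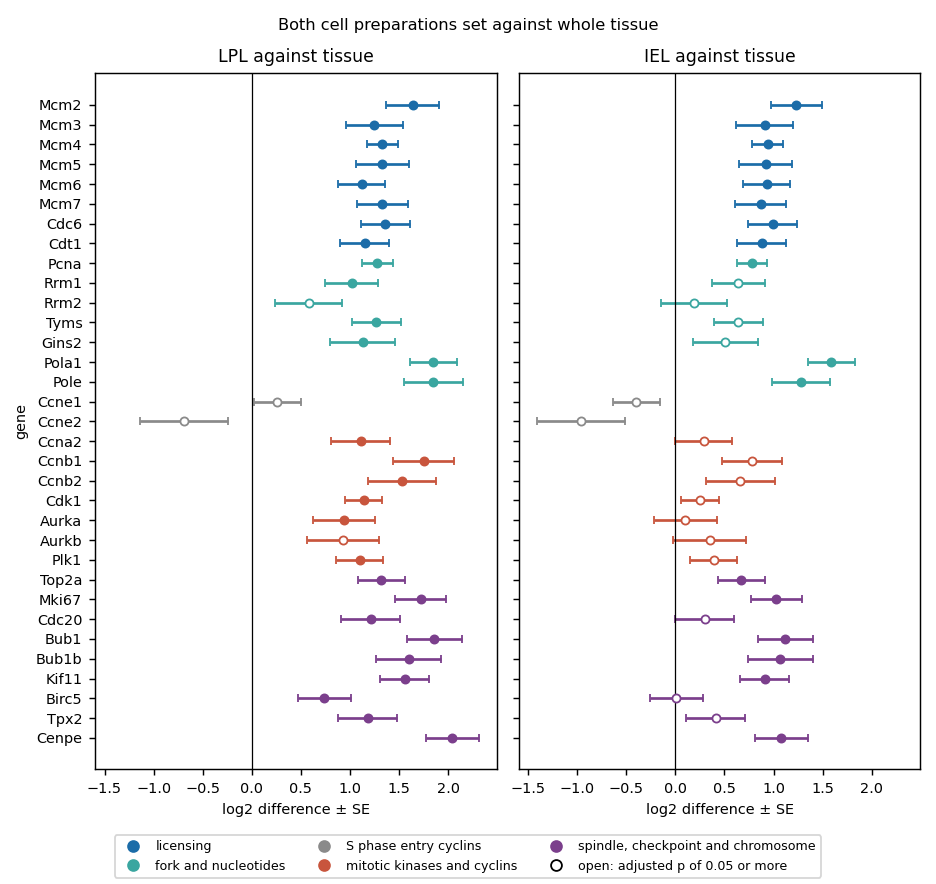
log2 difference (x axis, with SE bars) of LPL (left) and IEL (right) against whole tissue for each of the 33 genes (y axis, coloured by role), filled where the edgeR adjusted p was under 0.05 and open elsewhere. In LPL 29 points are filled, and in IEL 17, where the mitotic cyclins and kinases are all open and the licensing genes all filled.

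The calls in LPL were steadier than those in IEL. With each of the 8 libraries left out in turn 26 to 31 genes were called in LPL, and 26 were called each time. In IEL 9 to 20 were called, and 9 each time: Mcm2, Mcm4, Cdc6, Pcna, Pola1, Pole, Mki67, Bub1 and Cenpe. The fewest IEL calls came without IEL KO replicate 1, tissue KO replicate 2 or tissue WT replicate 2, and nearly as few without IEL WT replicate 1. Over all genes fewer were called in every such fit than with all libraries, so a lower count is not particular to these genes. The median ran from 1.17 to 1.43 in LPL and from 0.48 to 0.94 in IEL. Crypt base stem markers (Lgr5, Olfm4, Ascl2, Smoc2, Axin2 and Rnf43) also summed higher, at 480 to 689 CPM in LPL and 379 to 722 in IEL against 152 to 296 in tissue, with 3 of 6 called higher by edgeR in LPL and 2 of 6 in IEL. Of all genes 27.3% were called higher in LPL and 21.9% in IEL, and 1 of the 6 markers was below 0 in each. Smooth muscle markers summed to 697 to 3070 CPM in tissue and at most 158 in LPL and 4.64 in IEL, and enterocyte markers to 19400 to 38600, at most 2510 and at most 19200. The part of these cell types in the replication and mitosis values was not tested, and in bulk RNA fewer cells of a type and less RNA per cell cannot be told apart.

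Set directly against LPL, IEL had lower values for 33 of 33 genes, with a median log2 difference of -0.61 (all genes -0.03). Cdk1, at -0.89 (SE 0.19, edgeR adjusted p = 0.012), and Cenpe, at -0.96 (SE 0.26, edgeR adjusted p = 0.0321), fell in the edgeR test, where 7.92% of all genes were lower and 19.4% were called in either direction. Pcna, Ccnb1, Cdk1, Plk1 and Cenpe had every LPL library above every IEL library (15.2% of all genes did). Neither this count nor that of the calls exceeded the share of all genes, so both are no more than the background. The median was -0.84 over the mitotic cyclins and kinases and -0.73 over spindle genes. Licensing genes lay closer: Mcm2 was at -0.40 (SE 0.26, edgeR adjusted p = 0.3), Mcm4 at -0.39 (SE 0.15, edgeR adjusted p = 0.109) and Mcm6 had the smallest difference, -0.20 (SE 0.23, edgeR adjusted p = 0.581). The largest was that of Ccnb1, -0.97 (SE 0.31, edgeR adjusted p = 0.0544). The calls moved with single libraries, and no gene was called in every fit with a library left out. The median stayed between -0.90 and -0.44 in those fits. DESeq2 called 10 members and 3650 of all genes, against 2856 of all genes in the edgeR test.

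Other genes of the pathway were read in the same comparisons. Of 32 further replication genes 26 rose in LPL and 14 in IEL and 0 fell, among them Dnmt1, the maintenance DNA methyltransferase, at 1.56 and 1.30 on the log2 scale. Of 37 further mitosis genes 33 rose in LPL and 13 in IEL and 0 fell. Smc4, a condensin subunit, was 1.29 and 0.90 higher. Among 22 G1 and E2F regulators 10 rose and 2 fell in LPL, and 4 rose and 4 fell in IEL. Over all genes 27.3% rose and 28% fell in LPL, and 21.9% rose and 23.1% fell in IEL, so the IEL counts of these regulators were near the background. The regulator of smallest p fell in each: Rb1, which encodes the retinoblastoma protein that holds E2F factors in check, was at -0.95 (SE 0.15, edgeR adjusted p = 0.000941) in LPL, and Ccnd1, the G1 cyclin D1, at -1.26 (SE 0.24, edgeR adjusted p = 0.00368) in IEL. E2f2, an activating E2F, rose by 1.62 and 1.08, and Cdk6, a G1 kinase, by 1.63 and 1.21. Of 7 CDK inhibitors 0 rose and 3 fell in each, against the shares of all genes that fell just given. Their median was -0.75 in LPL, with 7 below 0, and -0.14 in IEL, with 4 below 0 and 3 above. Cdkn1a, which encodes p21, measured 353 and 447 CPM in WT tissue and 590 and 629 in KO tissue, 120 and 163 in WT LPL and 129 and 174 in KO LPL, and 157 and 165 in WT IEL and 173 and 211 in KO IEL. All tissue libraries were above all others, and Cdkn1a fell by 1.75 in LPL (SE 0.17, edgeR adjusted p = 6.83e-05) and by 1.49 in IEL (SE 0.17, edgeR adjusted p = 0.000414).

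The knockout was then compared with WT in whole tissue after gluten challenge. Whole tissue RNA holds the crypts together with other cells, so proliferation in the crypts was not read apart. No member was called (edgeR quasi-likelihood test, 0 of 33, with 0% of all 14716 genes called), and DESeq2 also called 0. The values leaned downward in the knockout: 32 of 33 were below 0, with a median log2 difference of -0.57, where 51% of all genes were below 0 and their median was -0.01. With DESeq2's scaling 30 were below 0. At an unadjusted p under 0.05 there were 2, Pola1 and Mcm4, where 463 of all genes (3.15%) were. For 18 genes both KO libraries lay below both WT libraries, against 12.3% of all genes. The medians by role were -0.60 for licensing, -0.57 at the fork, -0.40 for the E-type cyclins, -0.43 for mitotic cyclins and kinases and -0.61 for spindle genes.

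**Figure D3:**
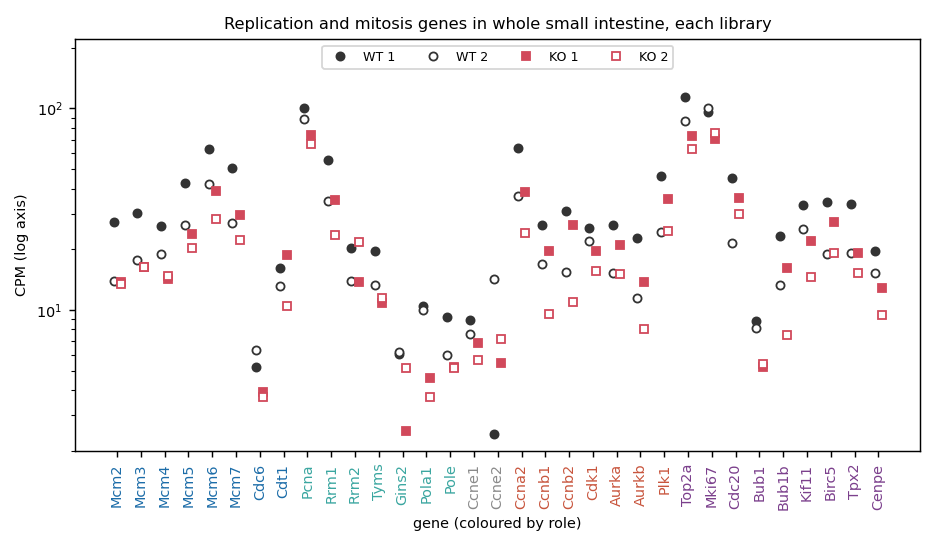
CPM (log axis) of the 33 genes in the 4 whole tissue libraries, WT in black circles and KO in red squares, filled for replicate 1 and open for replicate 2. WT replicate 1 is highest for 27 genes and KO replicate 2 lowest for 22, and both KO libraries lie below both WT libraries for 18 genes.

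Pola1 had the lowest difference, -1.29 (SE 0.35, edgeR adjusted p = 1.0), from 10.4 and 9.98 CPM in WT to 4.57 and 3.71 in KO. Mcm4, from 26.1 and 18.9 to 14.3 and 14.7 CPM, was at -0.63 (SE 0.22, edgeR adjusted p = 1.0). In both genes the KO libraries were below the WT libraries without passing the adjusted test. Of the genes chosen as markers, Pcna measured 100 and 88.2 in WT and 73.4 and 66.5 CPM in KO, a log2 difference of -0.43 (SE 0.22, edgeR adjusted p = 1.0). Top2a, from 114 and 86.5 to 72.7 and 62.6 CPM, was at -0.57 (SE 0.33, edgeR adjusted p = 1.0). Mki67, from 96.4 and 101 to 70.2 and 75.6, was at -0.44 (SE 0.36, edgeR adjusted p = 1.0). These 3 did not overlap between genotypes. Mcm2 was at -0.60 (SE 0.38, edgeR adjusted p = 1.0), but rested on WT replicate 1: WT replicate 2, at 13.9 CPM, was next to the KO libraries at 13.8 and 13.4. Cdk1 measured 25.4 and 22 CPM in WT and 19.7 and 15.6 in KO and was at -0.43 (SE 0.27, edgeR adjusted p = 1.0).

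Ccnb1 overlapped, at 26.5 and 16.9 CPM in WT and 19.7 and 9.58 in KO (-0.57 with SE 0.44, edgeR adjusted p = 1.0). Ccne1 was 8.89 and 7.59 CPM in WT and 6.85 and 5.63 in KO, at -0.40 (SE 0.34, edgeR adjusted p = 1.0). Ccne2, with WT at 2.42 and 14.2, was at -0.40 (SE 0.63, edgeR adjusted p = 1.0), and its WT libraries enclosed both KO libraries. Rrm2 had the highest difference, 0.05 (SE 0.49, edgeR adjusted p = 1.0), the only value above 0. Within replicate number 1, 31 genes were lower in KO (median -0.62, all genes 0.01), and within number 2, 29 were lower (median -0.42, all genes -0.02). Leaving out each of the 4 libraries gave medians of -0.88 to -0.25, the last without WT replicate 1, and no calls.

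Other lists were read in the same tissue libraries. Further replication genes were below 0 in 32 of 32 cases and further mitosis genes in 36 of 37, both with a median of -0.50 and 0 called. Chaf1b, a histone chaperone subunit at the fork, was lowest by p, at -1.27 (SE 0.41, edgeR adjusted p = 1.0). Of 7 CDK inhibitors 4 were above 0 and 3 below, with a median of 0.06. Among them Cdkn1a was at 0.61 (SE 0.23, edgeR adjusted p = 1.0), at 353 and 447 CPM in WT and 590 and 629 in KO. Crypt base stem markers summed to 296 and 250 CPM in WT and 242 and 152 in KO, and 5 of 6 were below 0. Enterocyte markers summed to 19400 and 33500 CPM in WT and 38600 and 38100 in KO, and 6 of 7 were above 0. Smooth muscle markers summed to 1040 and 3070 CPM in WT and 697 and 2840 in KO, and B cell markers to 64.8 and 5.94 in WT and 6.63 and 7.9 in KO, high in WT replicate 1. No list had a gene called, and the part of these cells in the lower values was not tested.

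In LPL, 0 of 33 genes were called by edgeR or DESeq2 (0% of all genes by edgeR), 17 were above 0 and 16 below, and the median was 0.01. The even split rested on single libraries. Without KO replicate 1 all 33 were above 0 (median 0.22) and without WT replicate 2, 25 were (median 0.20). Without KO replicate 2, 28 were below 0 (median -0.22) and without WT replicate 1, 29 were (median -0.19). By role, 8 of 8 licensing genes were below 0, with a median of -0.12, and 6 of 7 fork genes above, with a median of 0.02. For 0 genes were both KO libraries below both WT libraries, against 8.59% of all genes. None had an unadjusted p under 0.05 (3.04% of all genes did), and the log2 differences ran from -0.22 (Cdt1) to 0.25 (Birc5, SE 0.38). The SE of Mcm2, at -0.08, was 0.36, and that of Mki67, at -0.11, was also 0.36, so differences of that size were not resolved. The T cell markers were 66.2 and 6.81 CPM in WT and 1.91 and 8.16 in KO, while the summed replication and mitosis genes were 1800 and 2330 CPM in WT and 1800 and 2300 in KO.

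In IEL 0 of 33 were called by edgeR or DESeq2 (0% of all genes by edgeR) and none had an unadjusted p under 0.05 (0.815% of all genes did). Values were below 0 for 26 genes with a median of -0.16, and single libraries decided it. WT replicate 1 was highest for 31 genes and WT replicate 2 lowest for 27, so the KO libraries lay mostly between them. Without WT replicate 1 the median was 0.38 with all 33 above 0, and without WT replicate 2 it was -0.47. Summed over the 33 genes, IEL measured 1870 and 1010 CPM in WT and 1490 and 1080 in KO. CD8 T cell markers (Cd8a, Cd8b1, Gzma, Gzmb and Nkg7) summed to 365 and 1550 CPM in WT and 473 and 1060 in KO, and crypt base stem markers to 722 and 420 in WT and 594 and 379 in KO. Over these 4 libraries the replication and mitosis sum was high where the stem cell sum was high and the CD8 sum low; their part in it was not tested. Bub1, from 24.3 and 10.7 CPM in WT to 14.9 and 9.31 in KO, had the lowest difference, -0.54 (SE 0.38), and Ccne1 the highest, 0.25 (SE 0.34).

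Whether the knockout effect itself differed between preparations was tested by interaction terms. The members' median was 0.53 higher in LPL than in tissue (31 of 33 above 0), 0.38 higher in IEL than in tissue (28 of 33) and -0.13 in IEL against LPL. No member was called in any of the 3 tests by edgeR or DESeq2, and 0% of all genes were called by edgeR. At an unadjusted p under 0.05 there were 1, 1 and 0 members, against 1.96%, 0.836% and 0.761% of all genes, so these counts are near the background.

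Unstimulated CD8 IELs held few reads of most of these genes, and the IL-15 set had reads of all 33. Of the 33 genes 25 had all 6 IL-15 libraries above all 6 unstimulated libraries, against 12.7% of 13477 genes with a mean of at least 1 CPM. Within WT alone 30 genes did so (25.5% of all genes) and within KO alone 30 (35.3%). The 2 tables had been normalised apart and the sets differ in culture as labelled, so CPM computed from recovered read counts are set side by side with no test. In the unstimulated libraries 10 genes were under 1 CPM in all 6: Cdc6, Gins2, Ccnb1, Cdk1, Aurkb, Plk1, Top2a, Birc5, Tpx2 and Cenpe. Cdk1 had 0, 0.313 and 0.0536 CPM in WT and 0.155, 0.0934 and 0 in KO in unstimulated cells, and 83.7, 98.9 and 22.2 CPM in WT and 93.9, 45.7 and 159 in KO with IL-15. Top2a had 0.21, 0.833 and 0.215 CPM in WT and 0.413, 0.327 and 0 in KO, and 382, 378 and 99.5 CPM in WT and 494, 198 and 790 in KO with IL-15. The lowest IL-15 library was above 20 CPM for both, where no unstimulated library reached 1. No read of Cdk1 was found in unstimulated WT replicate 1 or KO replicate 3, which allows up to 0.126 and 0.183 CPM by counting error alone. The spread between unstimulated libraries was wider than counting error. For 39.9% of 17208 genes a library was under 1 CPM and another over 20 CPM, against 0.287% of genes in the IL-15 set. Low values in single unstimulated libraries are therefore less certain than these bounds.

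**Figure D4:**
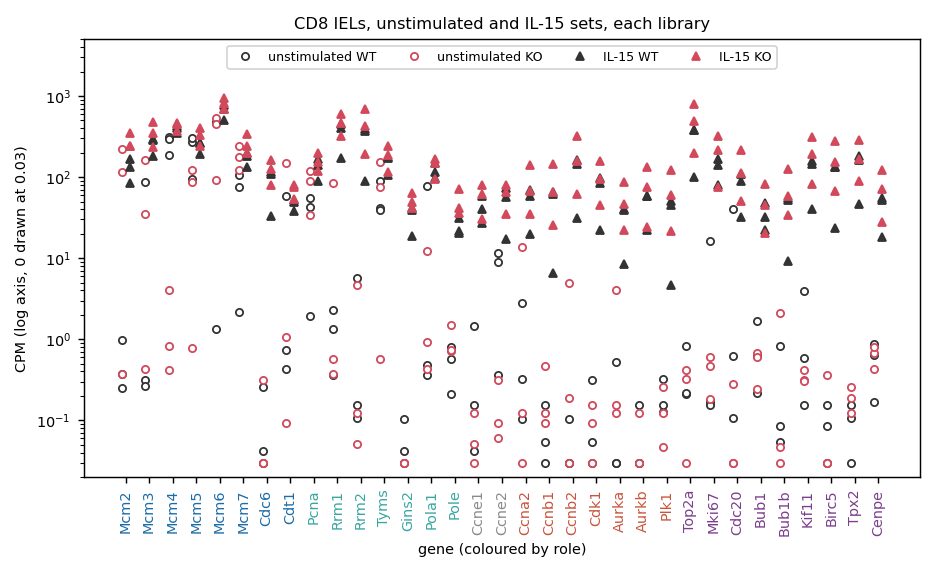
CPM (log axis, 0 drawn at 0.03) of the 33 genes in CD8 IELs, unstimulated libraries as open circles and IL-15 libraries as filled triangles, WT in black and KO in red. For 25 genes every triangle lies above every circle, and several licensing and fork genes have circles both near 0 and near the triangles.

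Some licensing and fork genes were the exception in unstimulated cells. Over 20 CPM in at least 3 unstimulated libraries were 7 genes, Mcm3 to Mcm7, Pcna and Tyms, and none of the mitotic and spindle genes. Of the other licensing genes, Cdc6 was under 1 CPM in all 6 unstimulated libraries, Mcm2 in 4 and Cdt1 in 3. Mcm6 had 484, 1.35 and 463 CPM in WT and 535, 91.8 and 447 in KO without stimulation and 696, 779 and 500 CPM in WT and 832, 701 and 943 in KO with IL-15. Pcna had 55.3, 1.93 and 42.8 CPM in WT and 34.3, 88.8 and 119.5 in KO, and 141, 166 and 88.9 CPM in WT and 154, 120 and 199 in KO with IL-15. Most unstimulated libraries of Mcm6 and Pcna were thus well above 20 CPM while WT replicate 2 was near 1. Rrm2 had 5.68, 0.156 and 0.107 CPM in WT and 0.0516, 4.62 and 0.122 in KO, and 369, 391 and 90.3 CPM in WT and 433, 195 and 683 in KO with IL-15. Mki67 had 0.168, 0.156 and 16.4 CPM in WT and 0.465, 0.607 and 0.183 in KO, and 141, 168 and 79.8 CPM in WT and 216, 76 and 323 in KO with IL-15. Rrm2 and Mki67 were low in all 6 unstimulated libraries apart from WT replicate 3 of Mki67. Ccne1 had 0.0421, 0.156 and 1.45 CPM in WT and 0.0516, 0 and 0.122 in KO, and 40.3, 58.6 and 26.8 CPM in WT and 61.4, 30.5 and 81 in KO with IL-15. Ccne2 had 11.6, 0.365 and 9.01 CPM in WT and 0.31, 0.0934 and 0.0609 in KO, and 57, 73.4 and 17.1 CPM in WT and 66.1, 35 and 79.7 in KO with IL-15. Ccnb1 had 0, 0.156 and 0.0536 CPM in WT and 0.465, 0.0934 and 0.122 in KO, and 61.4, 64.9 and 6.52 CPM in WT and 66.4, 25.7 and 145 in KO with IL-15. For all 3 cyclins the IL-15 libraries were above the unstimulated ones without overlap.

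Between genotypes, unstimulated cells gave no call (limma on log2 of the normalised value + 1, 0 of 25 genes tested, 0% of 17208 genes; edgeR on recovered reads also 0, of 14 tested). The other 8 of the 33 had a mean normalised value under 5. The median log2 difference was -0.03, with 12 above 0 and 13 below, and 2 had an unadjusted p under 0.05, Mcm4 and Ccne2, where 3.34% of all genes did. Values jumped between libraries. For 9 of the 25 genes a library was under 1 CPM and another over 20 CPM, and so it was for 39.9% of all 17208 genes, against 0.287% of genes and none of the members in the IL-15 set. Mcm5, for example, had 95.1, 274 and 307 CPM in WT and 0.774, 122.5 and 86.1 in KO. Mcm4 was the member whose jump followed the genotype, with 311, 188 and 295 CPM in WT and 0.826, 0.42 and 4.02 in KO. Its log2 difference was -7.58 (SE 1.70, limma adjusted p = 0.738), the lowest of the members. Mcm2 had the highest, 5.62 (SE 2.65, limma adjusted p = 0.903), with 0.253, 0.99 and 0.376 CPM in WT and 115, 0.374 and 225 in KO, where KO replicate 2 was as low as WT. Ccne2 was at -4.15 (SE 1.59, limma adjusted p = 0.903). Leaving out single libraries moved the median from -0.76 to 0.96.

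With IL-15 all 33 genes had a KO value above WT on average, but the size of the lean depended on single libraries. No member was called by limma (0 of 33, 0% of 16371 genes) or by edgeR on recovered reads, and 2 had an unadjusted p under 0.05, Mcm2 and Pole, where 11.2% of all genes did, so that count is no more than the background. The median log2 difference was 0.50 (all genes 0.08). KO replicate 3 was highest for 30 genes and WT replicate 3 lowest for 28. Without WT replicate 3 the median was -0.02 with 15 genes above 0, and without KO replicate 3 it was 0.14 with 26 above 0. Without both, a setting added after seeing the data, the median was -0.39 with 5 above 0. Leaving out both replicate 1 libraries, a planned setting, gave a median of 0.73 with 31 above 0. Without KO replicate 2 it rose to 0.96, and without WT replicate 1 or 2 it was 0.74 or 0.76, each with all 33 above 0. Mcm2 measured 168, 134.8 and 84.3 CPM in WT and 242, 245 and 350 in KO, a log2 difference of 1.02 (SE 0.28, limma adjusted p = 0.408). Pole measured 21.6, 20.3 and 31.5 CPM in WT and 41.8, 35.6 and 72.1 in KO, at 0.86 (SE 0.29, limma adjusted p = 0.417). In these 2 genes, and in no other member, all KO normalised values were above all WT values, as for 11.1% of all genes. Without both replicate 3 libraries they were 0.56 (limma adjusted p = 0.152) and 0.75 (limma adjusted p = 0.167).

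**Figure D5:**
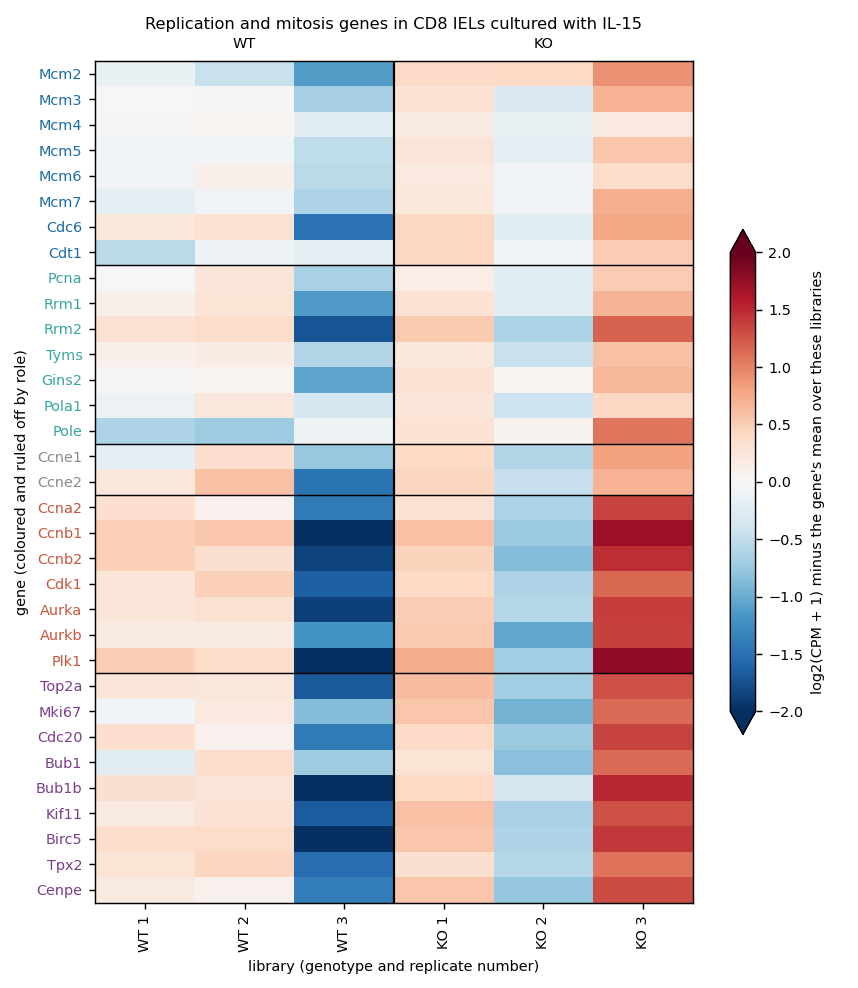
Level of each of the 33 genes in the 6 IL-15 libraries, as log2(CPM + 1) minus the gene's mean over the 6 (colour; values past 2 are drawn at the end of the scale), genes in rows by role. WT replicate 3 is lowest for 28 genes and KO replicate 3 highest for 30, and the range widens from the licensing genes at the top to the mitotic and spindle genes below.

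The spread between IL-15 libraries followed the roles. The ratio of the highest to the lowest library had a median of 2.31 over licensing genes, 3.44 at the fork, 3.84 for the E-type cyclins, 6.89 for spindle genes and 10.4 for mitotic cyclins and kinases. Mcm4, at 401, 429 and 353 CPM in WT and 457, 376 and 471 in KO, had the smallest ratio, 1.34, and also the smallest KO difference, 0.01 (SE 0.14, limma adjusted p = 0.978). Plk1, a kinase of mitotic entry and exit, had the largest ratio, 26.1, at 50.3, 45.9 and 4.7 CPM in WT and 60.2, 21.4 and 122.8 in KO. Its KO difference, 1.15 (SE 1.00, limma adjusted p = 0.655), was the largest of the 33, with WT replicate 3 far below the other libraries. Of the other markers, Top2a was at 0.68 (SE 0.65, limma adjusted p = 0.685), Mki67 at 0.37 (SE 0.53, limma adjusted p = 0.786) and Ccnb1 at 0.95 (SE 0.98, limma adjusted p = 0.701). Rrm2 was at 0.59 (SE 0.66, limma adjusted p = 0.728), Cdk1 at 0.50 (SE 0.65, limma adjusted p = 0.763), Pcna at 0.15 (SE 0.28, limma adjusted p = 0.845), Ccne1 at 0.29 (SE 0.42, limma adjusted p = 0.785) and Ccne2 at 0.33 (SE 0.57, limma adjusted p = 0.831). In each of these 8 genes the SE was close to the difference or larger.

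Replicate 3 libraries of the IL-15 set stood apart in some other genes too, WT alone in Cd8b1 and both genotypes in Gzmb. Both genes were picked after their values were seen. The 5 CD8 T cell markers that include them summed to 33600, 34800 and 18600 CPM in WT and 29800, 34300 and 18100 in KO. The 6 T cell markers lay closer together, at 8090, 7950 and 8430 CPM in WT and 7720, 8040 and 6700 in KO. Cd8b1, the CD8 beta chain, measured 345, 88.8 and 2430 CPM in WT and 99.3, 160 and 160 in KO. Gzmb, a cytotoxic granule protease, measured 9560, 8950 and 5170 CPM in WT and 8610, 10800 and 4960 in KO, lower in the replicate 3 library of either genotype than in the other 4. The part of these differences between libraries in the replication and mitosis values was not tested. Of 37 further mitosis genes 34 were above 0 (median 0.57) and of 32 further replication genes 27 (median 0.36), with 0 called by limma. Pold1, the catalytic subunit of DNA polymerase delta, was at 1.17 (SE 0.32, limma adjusted p = 0.408), with 38.8, 24.8 and 27.6 CPM in WT and 50.3, 66.8 and 118 in KO. Of 21 G1 and E2F regulators tested 14 were above 0 (median 0.34), and of 6 CDK inhibitors 2 (median -0.12).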

How the data were processed

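RNA-seq of 24 libraries was used. For 12 libraries of tissue, LPL and IEL the authors deposited read counts per Entrez gene, aligned with HISAT2 per the file headers and counted with featureCounts per the submitters' processing notes, which also name TopHat and mm10. For CD8 cells the authors deposited 2 tables of normalised signal per Ensembl gene, which are read counts divided by a size factor per library. The notes list STAR, DESeq2 and mm39 without saying for which files. Multiplying each CD8 column by a single factor gave whole reads for 100% of values (tolerance 0.01). Strand setting and versions are not given in the sources used here.

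The 12 libraries were fitted as 6 groups with edgeR 4.0.16 (TMM, filterByExpr, quasi-likelihood test). CD8 values were fitted per table with limma 3.58.1 on log2(value + 1), keeping genes whose mean normalised value reached 5, so fold changes of low genes are understated. P-values were adjusted over all genes by Benjamini-Hochberg, with 0.05 as threshold. DESeq2 1.42.0 was an alternative. The edgeR fit and the limma fit of the IL-15 table were also run on simulated data. Those data held no differences shared by many genes of a library, so they cannot show how the fits handle such differences. A count of 0 allows up to 3 reads by counting error alone. Replicates are called biological in the labels, with no animal named, so p-values rest on the spread between libraries and not between known animals. In the edgeR fit that spread was estimated over all 12 libraries together, not from the compared libraries alone.

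The members and lists were chosen with earlier results of these data known. Named genes were up to 8 called members of smallest p per comparison, 9 markers (Mcm2, Pcna, Rrm2, Ccne1, Ccne2, Top2a, Mki67, Ccnb1 and Cdk1) and the largest and smallest differences; other names, among them Mcm5, Mcm6, Aurkb, Cd8b1 and Gzmb, were chosen after their values were seen.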

Additional observations from a re-analysis of the deposited data

How the results depend on the processing

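The calls of IEL against LPL depended most on the processing: 2 genes in the edgeR fit became 10 with DESeq2, 11 without the filter on low counts and 4 with a replicate block added after seeing the data, and 0 to 15 when each library was left out. IEL against tissue gave 9 to 20 calls when each library was left out. The IEL knockout median ran from -0.47 to 0.38, and the unstimulated CD8 median from -0.76 to 0.96, when each library was left out. The LPL knockout median ran from -0.22 to 0.22 and the IL-15 median from -0.02 to 0.96 in the same way. The unstimulated CD8 median was 0.70 with edgeR on recovered reads and 1.87 without both replicate 1 libraries. The cause was not tested. Replicate numbers did not pair the samples by their labels. The correlation between deviations of same-numbered WT and KO libraries was 0.682 for tissue, 0.382 for LPL and 0.574 for IEL, where 2 libraries a group cannot show pairing, and at -0.057 to 0.001 in CD8 cells. With the replicate block 18 tissue genes instead of 2 had an unadjusted p under 0.05 and 0 were called by edgeR. The share of all genes under 0.05 in that blocked fit was not read, so the 18 cannot be set against a background. No knockout comparison gained or lost a member call under any alternative run.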

Other observations

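CDK inhibitors, the brakes of the cycle, summed to 304 to 407 CPM in unstimulated CD8 cells and to 187 to 243 in the IL-15 set, so that the sets did not overlap. G1 and E2F regulators summed to 691 to 2040 CPM and 3810 to 4480, again without overlap. The sets did overlap for the further replication genes, at 1500 to 2310 CPM unstimulated and 2240 to 4800 with IL-15. They also overlapped for the further mitosis genes, at 1050 to 2450 and 1620 to 5470 CPM. The 2 tables were normalised apart and no test was made.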
